A study of Mus with 4 samples.

Results

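The genes described here are 35 members of the p53 pathway and of the apoptosis machinery, chosen by name: the p53 family, its regulators, its target genes, the Bcl2 family and the caspases with their regulators. All 35 were matched to the array, through 57 of its 41174 probes, and 16 of them had more than 1 probe. RNA came from *Six2*+ nephron progenitor cells (NPCs), the cap mesenchyme cells that form the epithelium of the nephron, FACS-isolated for their EGFP from mouse kidneys at embryonic day 15.5. *Mut* embryos were *Six2* Cre+; *PRR* flox/flox, and *WT* littermates were *Six2* Cre+; *PRR* +/+, so both groups carried the transgene with Cre and EGFP, and *PRR*, the (pro)renin receptor gene *Atp6ap2*, was deleted in *Mut* NPCs and the cells derived from them. Each sample was a pool of kidneys. On arrays 1, 2 and 3, *Mut* pools 1, 2 and 3 in Cy3 were hybridized together with *WT* pools 1, 2 and 3 in Cy5. Array 4 compared *WT* with *WT*, with pool 2 in Cy3 and pool 1 in Cy5. The pools were divided at random from isolated cells, so P-values measure the spread between pools, which may be partly technical.

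p53 is a transcription factor held at a low level by the ubiquitin ligase Mdm2 and its partner Mdm4. When stabilized by DNA damage or other stress it activates genes of cell cycle arrest and repair, such as *Cdkn1a*, and of cell death, such as *Bax* and *Bbc3*. Much of its control acts on the protein, which mRNA arrays do not measure. In the intrinsic death pathway the BH3-only proteins release or activate the effectors Bax and Bak, which permeabilize the outer mitochondrial membrane unless Bcl2, Bcl2l1 or Mcl1 holds them back, and cytochrome c with Apaf1 then activates caspase 9.

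Values are log2 ratios of Cy3 over Cy5, which is *Mut* over *WT* on arrays 1 to 3, or normalized log2 signals of 1 channel. A probe was called when its adjusted P (limma, Benjamini-Hochberg over 41166 probes) was under 0.05 and its change over 1.5-fold, and a gene with several probes is described by the brightest. The dyes were never exchanged on arrays 1 to 3, so dye and genotype cannot be told apart there. The only probe of *Atp6ap2* was 0.17 lower in *Mut* on the log2 scale (adjusted P = 0.0351, limma; lower on 3 of 3 arrays), against -0.19 between *WT* pools. With a dye term from array 4 it was at 0.02 (adjusted P = 0.966, limma). This probe therefore could not tell loss of the deleted gene from the dye, and which channel is *Mut* is known from the labels alone. Whether this probe lies in the deleted stretch was not examined. With these labels *Lhx1* (0.69) and the brighter *Trp53* probe (0.80) were called higher in *Mut*, opposite to the direction the study describes. *Jag1* (0.44) and *Fgf8* (0.40) were also opposite, by adjusted P without a call, and the dimmer *Trp53* probe was at -0.07. At *Lhx1*, *Jag1* and *Fgf8*, *WT* pool 1 read 0.76, 0.64 and 0.36 higher on array 4 than on array 1. There it lay nearer the *Mut* pools, but at the brighter *Trp53* probe it read 0.08 lower on array 4. Not every gene ran opposite: *Hbb-y*, listed by the study as higher, was at 0.49 without a call.

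Of 11 NPC markers, 10 were well above background in both channels of arrays 1 to 3, and their summed signal was 26620 to 28550 in *Mut* and 29600 to 31320 in *WT*, with 27830 in Cy3 and 30070 in Cy5 on array 4. That of 9 stroma genes was 19770 to 22530 in *Mut* and 18400 to 20170 in *WT*, with 19900 and 19120 on array 4. That of 9 genes of the differentiating nephron was 1856 to 1989 in *Mut* and 1495 to 1590 in *WT*, but 2047 and 2068 for the *WT* pools of array 4, and 5 of the 9 were higher by adjusted P and 0 lower. Called were 3 of 17 stroma probes higher and 1 lower (0 with the dye term), 1 of 12 probes of the differentiating nephron higher (*Lhx1*, also with the dye term), 2 of 15 NPC probes lower (1 with the dye term) and 0 among 10 probes each of ureteric bud, endothelium and macrophages (limma; at an unadjusted P under 0.05 alone, 3 higher and 6 lower in all), where 2.01% of all probes were called. The stroma calls ran in both directions, and other probes of *Col1a1*, *Col3a1* and *Acta2* were not called. Of 13 erythroid probes 5 were called higher, as were 5 with the dye term, and the signal summed over 9 erythroid genes was 9521 to 10050 in the *Mut* channels and 4397 to 4564 in the *WT* channels, but 9304 for *WT* pool 1 and 9534 for *WT* pool 2 on array 4, so *WT* pool 1 did not read alike on its 2 arrays. Whether the RNA on each array is that of its label could not be checked, and every array 4 ratio and dye-term value below holds only if it is. *WT* pool 1 differed by more than 1.5-fold between its 2 arrays at 398 of all probes and at 0 of the 57 member probes. The part of these differences in the results below was not tested. In pooled bulk RNA, fewer cells of a type and less RNA per cell cannot be told apart.

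Most of these genes gave a signal in the sorted pools. The brightest probe of 25 genes was well above background in both channels of all 3 arrays. Those of *Trp63*, a p53 relative of stratified epithelia, of *Pmaip1*, which encodes the BH3-only protein Noxa, and of *Rrm2b*, a ribonucleotide reductase subunit for DNA repair, were not above background in any channel of arrays 1 to 3. *Trp73*, *Fas*, *Bad* and *Xiap* were above background in some or all *WT* channels and in no *Mut* channel of arrays 1 to 3. On array 4 the Cy3 channel, which holds *WT* pool 2, was likewise not above background for *Trp73*, *Fas* and *Bad*, while the Cy5 channel was, so the dim channel of these 3 genes goes with the dye as well as with *Mut*. For *Xiap* both channels of array 4 were above background. Such genes are given by a bound, in which the dim channel counts as no lower than the weakest signal well above background on its array. For *Bad*, *Xiap* and a dim *Mdm4* probe the dim signals already lay above that weakest signal, so the measured fold is given. No bound allows for the dye.

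Of the 57 member probes, 1 was called higher in *Mut*, the brighter probe of *Trp53*, and 0 were called lower by limma (at an unadjusted P under 0.05 alone, 9 were higher and 24 lower, where 18.9% and 21.6% of all probes were). This is 1.75% of the member probes, against 2.01% of all probes (0.551% higher and 1.46% lower), so the share called was near the background. Leaving out array 1, 2 or 3 again gave 1 probe higher and 0 lower. By adjusted P alone, 8 member probes were higher and 18 lower, against 13.2% and 16.4% of all probes, 29.6% in both directions. Restricted to probes above background in both channels throughout, 20 of 37 member probes passed, 54.1%, against 48.1% of 17919. The levels of the *Mut* channels lay wholly above those of the *WT* channels at 8 member probes and wholly below at 20, where the shares over all probes were 17.5% and 20.5%. The median log2 ratio of the member probes was -0.07, with -0.00 for all probes, and the median absolute ratio 0.146, with 0.0973 for all probes. By their brightest probes 14 genes had a ratio above 0 and 21 below. With the arrays centred on their median in place of loess, 5 were above and 30 below. Median centring does not remove a trend of the ratio with signal, as loess does. The member probes were brighter than all probes (median *WT* level 7.48 against 6.5). No share was computed for probes of like signal, so the counts by sign under median centring have no background to be read against. Apart from *Trp53*, the brightest probes of the members ranged from -0.38 (*Bbc3*) to 0.30 (*Mcl1*). The range widened to -0.98 (*Bbc3*) and 0.25 (*Perp*) with median centring, where 10 genes were more than 1.5-fold lower without a call, among them *Bax* (-0.92), *Diablo* (-0.84), *Bcl2l11* (-0.82), *Casp9* (-0.77) and *Bak1* (-0.76). With the deposited log ratios it ran from -1.56 (*Xiap*) to 1.04 (*Perp*), and 7 genes, all but *Trp53* dim in at least 1 channel of arrays 1 to 3, were past 1.5-fold without a call. Over the brightest probes of all genes 14.4% were higher and 18.6% lower by adjusted P alone, against which the counts of each role below are to be read.

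**Figure D1:**
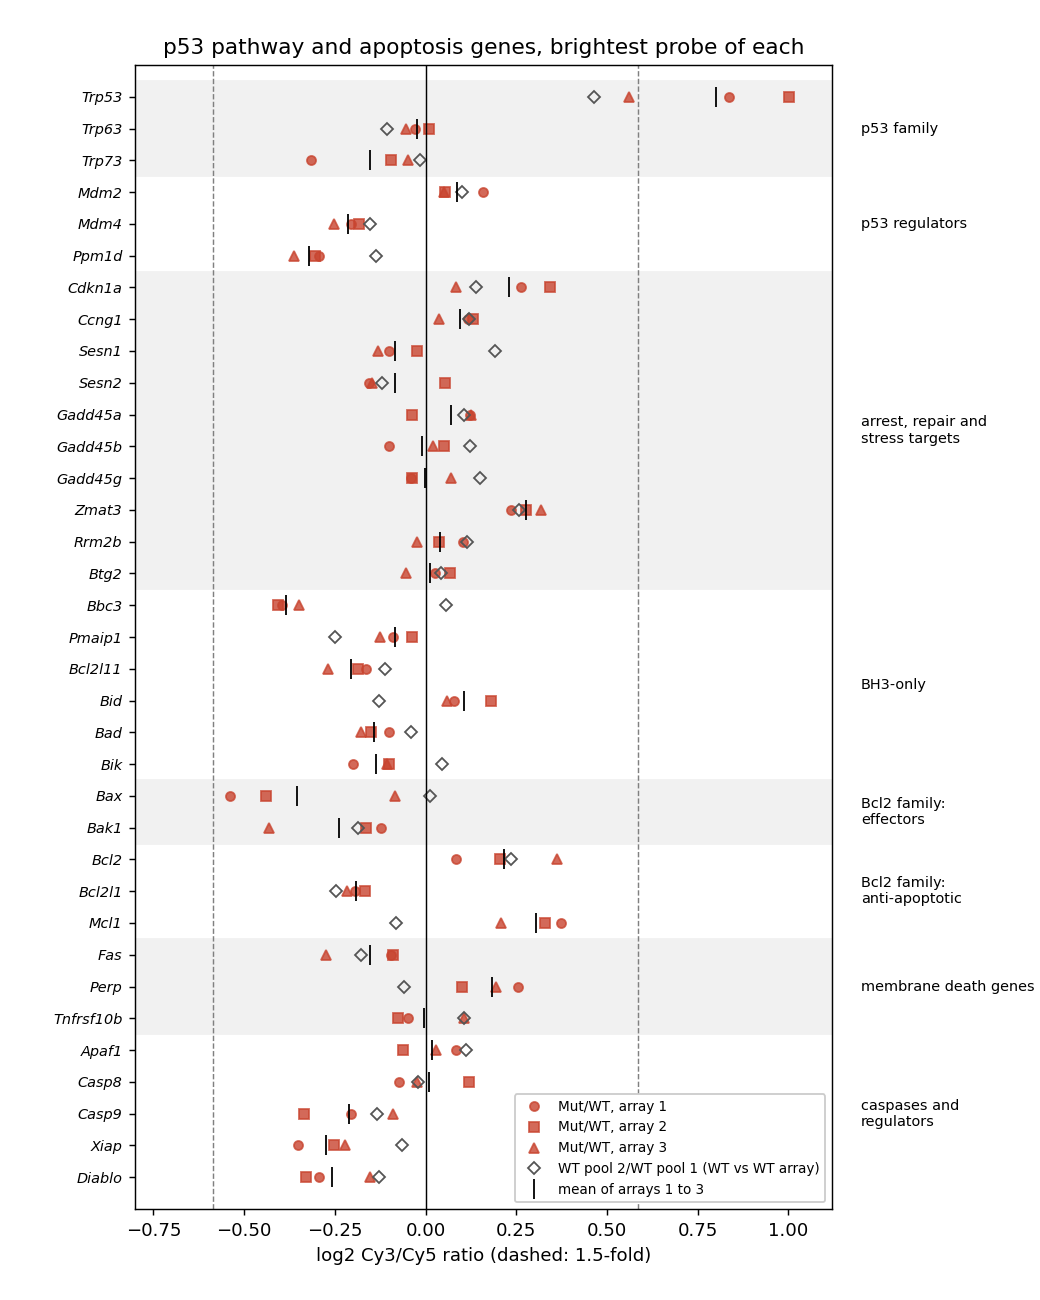
log2 Cy3/Cy5 ratio (x axis) of the brightest probe of each of the 35 genes (y axis, grouped by role). Filled symbols are *Mut*/*WT* on arrays 1 to 3, bars their mean, open diamonds *WT* pool 2/*WT* pool 1, and dashed lines 1.5-fold. Only *Trp53* has a mean past 1.5-fold (0.80), and its *WT* vs *WT* ratio of 0.46 is also the highest of the diamonds. With median centring in place of loess 30 of the 35 ratios were below 0, a count not set against probes of like signal.

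*Trp53*, which encodes p53, had 2 probes that behaved differently. At the brighter one (A_52_P491849) the log2 signal was 7.94, 7.96 and 7.78 in *WT* pools 1, 2 and 3, and 8.78, 8.96 and 8.34 in *Mut* pools 1, 2 and 3. All *Mut* pools lay above all *WT* pools, and *Mut* pool 3 was the lowest of them. The ratios were 0.84, 1.00 and 0.56, a mean of 0.80 ± 0.22 (SD, n = 3; SE 0.0736), or 1.74-fold higher in *Mut* (adjusted P = 2.1e-05, limma). This direction follows the dyes given in the labels. On array 4, where genotypes do not differ, the same probe read 8.32 for *WT* pool 2 in Cy3 and 7.86 for *WT* pool 1 in Cy5, a ratio of 0.46. *WT* pool 2 thus read 0.37 higher in Cy3 than in Cy5 on array 2, close to *Mut* pool 3, and the mean of the *Mut* pools exceeded it in the same dye by 0.37. With a dye term taken from array 4 for each probe, the *Mut*/*WT* ratio was 0.33 (SE 0.147) and was not called (adjusted P = 0.323, limma). At the dimmer probe (A_52_P781398) the ratios were -0.09, -0.02 and -0.09, with a mean of -0.07 (adjusted P = 0.353), and the channels overlapped. The relatives did not pass: *Trp63* was not above background, and *Trp73*, whose *Mut* channels were all dim, had a bound of at least 1.09-fold lower that did not pass (adjusted P = 0.0821).

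**Figure D2:**
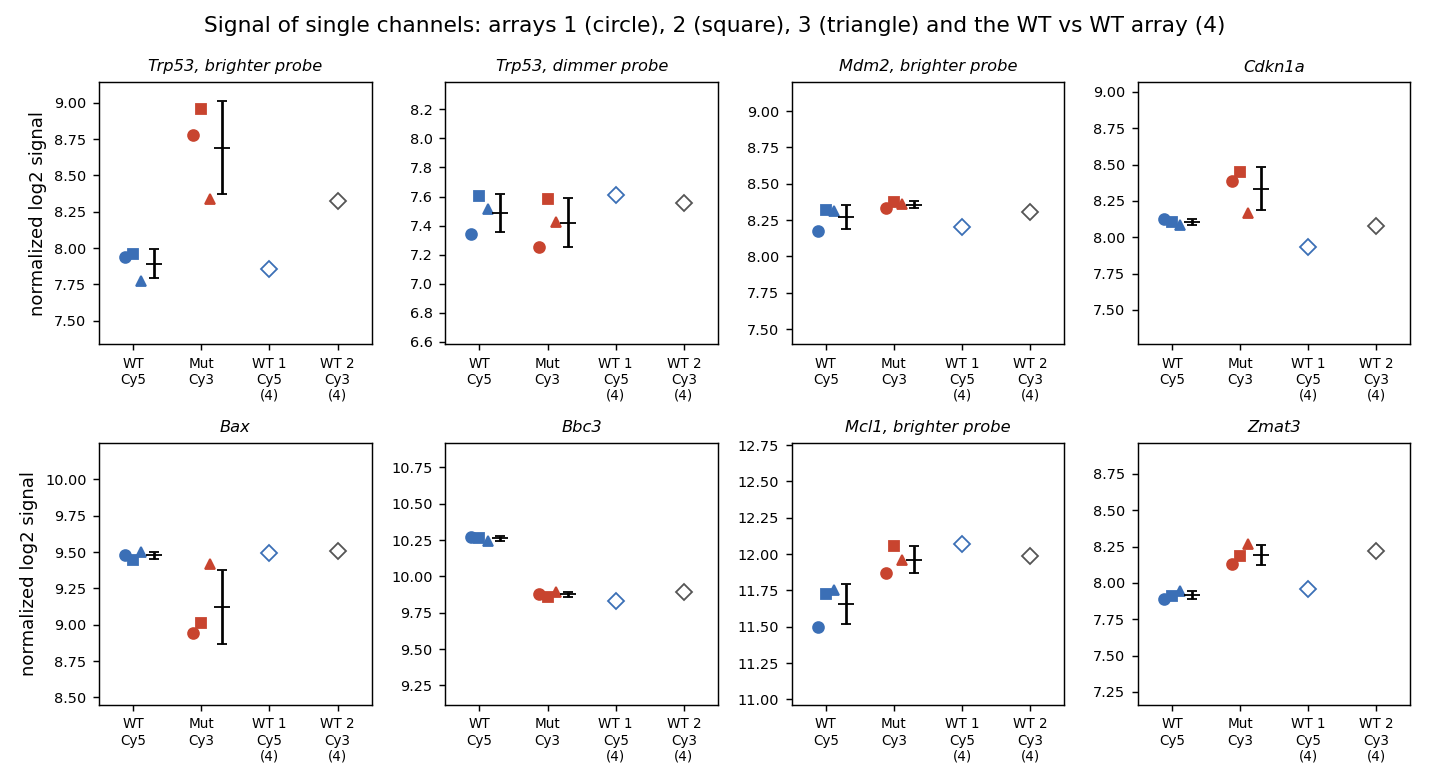
Normalized log2 signal (y axis; each panel spans its own range and does not start at 0) of 8 probes in the *WT* channels (blue, Cy5) and *Mut* channels (red, Cy3) of arrays 1 to 3 and in array 4 (open diamonds). Bars are the mean ± SD of 3 pools. At the brighter *Trp53* probe *WT* pool 2 in Cy3 (8.32) lies beside *Mut* pool 3 (8.34), and at *Bbc3* *WT* pool 1 on array 4 (9.83) lies beside the *Mut* pools (9.86 to 9.89).

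Among the 3 regulators of p53, 2 were below 0 and 1 above by the brightest probe, and all 3 were below 0 with median centring and with the dye term. *Mdm2*, at once the main inhibitor of p53 and one of its targets, read 8.17, 8.32 and 8.31 in the *WT* pools and 8.33, 8.38 and 8.36 in the *Mut* pools at its brighter probe. The groups lay next to each other without overlap, and the ratios of 0.16, 0.05 and 0.05 (mean 0.09, SE 0.0526) did not pass (adjusted P = 0.24). Its dimmer probe went the other way, with ratios of -0.52, -0.29 and -0.33 and a mean of -0.38 (adjusted P = 0.000543), 1.3-fold and so not called. *Mdm4*, the partner of Mdm2 that masks the transactivation domain of p53, was 0.21 lower (adjusted P = 0.0085), with -0.15 between *WT* pools. Of its other probes, 1 was at -0.04 and did not pass, and the other, with dim *Mut* channels, was 1.11-fold lower and did not pass (adjusted P = 0.0799). *Ppm1d*, the phosphatase Wip1 that ends p53 signalling, read 7.86, 7.95 and 8.02 in *WT* and 7.57, 7.64 and 7.66 in *Mut* at its brighter probe. This was a mean ratio of -0.32 ± 0.04 (adjusted P = 0.000722), while the dimmer probe was 0.19 higher (adjusted P = 0.0459), so the 2 probes passed in opposite directions. The ratios of the dimmer probe were 0.23, 0.35 and -0.00, and its channels overlapped.

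The 10 targets of arrest, repair and stress had a median near 0 (0.03), 6 being above 0 and 4 below, but 1 above and 9 below with median centring and 3 above and 7 below with the dye term. Of the 10, 2 were higher by adjusted P and 0 were lower at their brightest probe. *Cdkn1a*, the cyclin-dependent kinase inhibitor p21, read 8.12, 8.11 and 8.09 in *WT* and 8.39, 8.45 and 8.17 in *Mut*. All *Mut* pools were above the *WT* pools, the third by the least. The ratios of 0.26, 0.34 and 0.08 had a mean of 0.23 ± 0.13 (SD, n = 3), or 1.17-fold (adjusted P = 0.0133), against 0.14 between *WT* pools, and the ratio was 0.09 with the dye term and -0.23 with median centring. Without array 2 it no longer passed (adjusted P = 0.148). *Zmat3*, which encodes an RNA-binding protein induced by p53, had ratios of 0.24, 0.28 and 0.32 (mean 0.28, adjusted P = 0.00187). The *WT* vs *WT* ratio of this gene, 0.26, was as large, and with the dye term 0.02 was left.

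The other targets did not pass at the brightest probe. *Sesn1*, a sestrin that restrains mTORC1, was at -0.08 (adjusted P = 0.254) there, but at -0.48 (adjusted P = 0.000169) and -0.28 (adjusted P = 0.00833, above background in 1 of 3 *Mut* channels) at its dimmer probes. At the first of these dimmer probes *WT* pool 1 read 7.80 on array 1 and 7.30 on array 4, near *Mut* pool 3 (7.29). *Ccng1*, cyclin G1, was at 0.10 (adjusted P = 0.189) and at -0.16 (adjusted P = 0.0338). *Sesn2* was at -0.08, and *Gadd45a*, *Gadd45b* and *Gadd45g*, growth arrest genes of the stress response, were at 0.07, -0.01 and -0.00. *Btg2*, an antiproliferative gene, was at 0.01, and *Rrm2b* was dim. The adjusted P of these last genes ranged from 0.309 for *Sesn2* to 0.977 for *Gadd45g*.

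Of the 6 BH3-only genes, whose products start the mitochondrial pathway, 5 were below 0 and 1 (*Bid*) above, while with median centring *Bid* was below 0 and the dim *Pmaip1* above, and with the dye term both were above. Of the 6, 2 were lower by adjusted P, short of 1.5-fold. *Bbc3*, which encodes Puma, a direct target of p53, read 10.27, 10.26 and 10.24 in *WT* and 9.88, 9.86 and 9.89 in *Mut*. The pools of each genotype lay close together and the groups stood apart. The ratios were -0.40, -0.41 and -0.35, a mean of -0.38 ± 0.03 (SD, n = 3; SE 0.0511), or 1.3-fold lower in *Mut* (adjusted P = 0.000215, limma). On array 4, however, *WT* pool 1 read 9.83, which is 0.44 below its own value on array 1, and *WT* pool 2 read 9.89. Both thus lay at the level of the *Mut* pools. Without array 1 the mean was -0.38 (adjusted P = 2.42e-05). This cannot bear on the levels of array 4, since *WT* pool 2 also read 0.37 lower there than on array 2. The ratio between the *WT* pools of array 4 was 0.06. With the dye term *Bbc3* was at -0.44 (adjusted P = 0.0697), the lowest adjusted P of the 35 genes in that fit. *Bcl2l11*, which encodes Bim, had a mean of -0.21 (adjusted P = 0.0117), with 0.02 at its other probe (adjusted P = 0.771). *Bad* (*Mut* channels dim, 1.1-fold lower, adjusted P = 0.057), *Bik* (-0.14, above background in 1 of 3 *Mut* channels, adjusted P = 0.0724) and *Bid* (0.11, adjusted P = 0.157), the caspase 8 substrate, did not pass, and *Pmaip1* was dim.

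Both effectors were below 0, and remained so under every scaling tried. *Bax* read 9.48, 9.45 and 9.50 in *WT* and 8.94, 9.01 and 9.42 in *Mut*. *Mut* pools 1 and 2 stood well below the *WT* pools and *Mut* pool 3 was just under them. The ratios of -0.54, -0.44 and -0.09 averaged -0.35 ± 0.24 (SD, n = 3; SE 0.0766), 1.28-fold lower (adjusted P = 0.0047), and ranged from -0.49 without array 3 to -0.26 without array 1. On array 4 both *WT* pools were near the other *WT* values, at 9.51 and 9.49, with a ratio of 0.01. With the dye term *Bax* was at -0.37 (adjusted P = 0.296), the same size with a larger error. *Bak1* was 0.24 lower at its brighter probe (adjusted P = 0.016) and 0.20 lower at the other (adjusted P = 0.0168, above background in 1 of 3 *Mut* channels), with -0.19 and -0.12 between *WT* pools. With the dye term the probes were at -0.05 and -0.08 (adjusted P = 0.896 and 0.79, limma). Without array 3 they were at -0.14 and -0.16 and did not pass (adjusted P = 0.091 and 0.0587, limma).

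The 3 anti-apoptotic genes all passed by adjusted P, 2 being above 0 and 1 below, but all 3 were below 0 with median centring. *Mcl1*, a short-lived guardian against Bak and Bim, read 11.50, 11.72 and 11.75 in *WT* and 11.87, 12.05 and 11.96 in *Mut* at its brighter probe. All *Mut* pools were above all *WT* pools. The ratios of 0.37, 0.33 and 0.21 averaged 0.30 ± 0.09 (SD, n = 3; SE 0.0546), 1.23-fold higher (adjusted P = 0.00152), and the other probe was 0.25 higher (adjusted P = 0.00687). *WT* pool 1, however, read 12.07 on array 4, 0.57 above its value on array 1 and above every *Mut* pool, and *WT* pool 2 read 11.99. Without array 1 the brighter probe was at 0.27 (adjusted P = 0.00258). This cannot bear on the levels of array 4, since *WT* pool 2 also read 0.26 higher there than on array 2. With the dye term the brighter probe was at 0.39 (adjusted P = 0.13) and the other at 0.08 (adjusted P = 0.794). *Bcl2* was 0.22 higher at its brighter probe (ratios 0.08, 0.21 and 0.36; adjusted P = 0.0189), with 0.24 between *WT* pools, and 0.24 lower at the dimmer one (adjusted P = 0.00819). Without array 3 the brighter probe was at 0.14 and did not pass (adjusted P = 0.0946, limma). *Bcl2l1*, which encodes Bcl-xL, was 0.19 lower (adjusted P = 0.0142), but its *WT* vs *WT* ratio of -0.25 was larger, and its other probes, above background in 1 and 2 of 3 *Mut* channels, were at -0.29 and 0.03.

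The death genes of the membrane were dim, none of the 3 being above background in both channels of all arrays. *Fas*, a death receptor whose *Mut* channels were dim, was at least 1.08-fold lower and did not pass (adjusted P = 0.0621). *Tnfrsf10b*, the TRAIL receptor, was at -0.00 at its brightest probe, and at a dimmer one, where no *Mut* channel was above background, it was at least 1.24-fold lower (adjusted P = 0.000644). At that probe *WT* pool 2 in Cy3 was not above background on array 4 either, with a ratio of -0.11 there and of -0.22 with the dye term (adjusted P = 0.356). *Perp*, a p53 target and desmosomal protein, was 0.18 higher (adjusted P = 0.0237; above background in 2 of 3 channels of each group), with -0.06 between *WT* pools.

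Of the 5 caspases and regulators, 3 were lower by adjusted P and 0 higher. By sign 3 were below 0, as against all 5 with median centring and 4 with the dye term. *Casp9*, the initiator caspase of the mitochondrial pathway, read 9.48, 9.47 and 9.37 in *WT* and 9.27, 9.14 and 9.28 in *Mut*, a mean ratio of -0.21 (adjusted P = 0.0184). *Diablo*, the mitochondrial protein that relieves caspases from their inhibitors, was 0.26 lower (adjusted P = 0.00444), with -0.13 between *WT* pools for both genes. *Xiap*, a direct caspase inhibitor, was 1.21-fold lower (adjusted P = 0.0024), its *Mut* channels being dim on all 3 arrays. With the dye term it was at -0.21 (adjusted P = 0.393, limma). *Casp8*, the initiator caspase of the death receptors, was at 0.01 (adjusted P = 0.929), and *Apaf1*, the scaffold of the apoptosome, at 0.02 (adjusted P = 0.845).

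**Figure D3:**
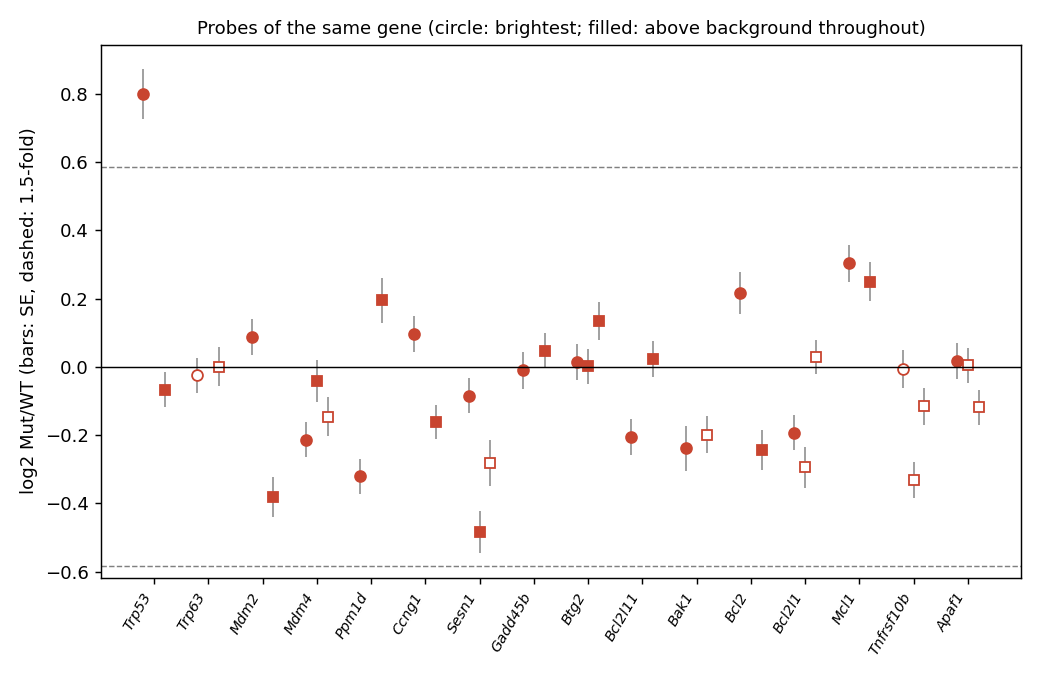
log2 *Mut*/*WT* (y axis; bars, SE from limma; dashed lines, 1.5-fold) of every probe of the 16 genes with more than 1 probe. Circles are the brightest probe, squares the others, and open symbols probes not above background in both channels of all arrays. For *Trp53* the circle is at 0.80 and the square at -0.07, and for *Ppm1d* and *Bcl2* both probes passed in opposite directions.

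In 10 of the 16 genes with more than 1 probe the ratios were of both signs (62.5%), as the plot of all probes shows, against 47.7% of 5303 genes on the array. Among probes above background in both channels of arrays 1 to 3 it was 7 of 11 genes, against 43.1% of 2640. In some, such as *Trp63* and *Gadd45b*, all ratios were near 0. The median range between probes of a gene was 0.243 (0.175 over all genes). The median absolute ratio of single probes, a different measure, was 0.146 (0.0973 over all probes). The probes of *Bcl2*, and those of *Apaf1*, are annotated to different transcripts of the gene. Whether this bears on their directions was not tested, and which exons the probes measure was not examined here.

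Array 4 gave ratios of the same order as many of the differences above. Of the 16 genes that passed by adjusted P at their brightest probe (16 of 35, with 33% over all genes), 12 had a smaller ratio with the dye term, 2 of them with the opposite sign (*Bcl2* and *Bcl2l1*), and 0 passed by adjusted P in that fit. Of all 35 genes, 7 had an unadjusted P under 0.05 with the dye term (limma): *Trp53*, *Bax*, *Bbc3*, *Sesn1*, *Mcl1*, *Bid* and *Perp*. Over the brightest probes of all 16355 genes the share was 14.3%, or 2338. No member probe was called in that fit, in which 0.785% of all probes were called, 0.355% higher and 0.43% lower. The term rests on 1 array and carries any difference between *WT* pools 2 and 1. A shift shared by both channels of array 4 cancels in it. At *Bbc3*, *WT* pool 1 read 0.44 lower on array 4 than on array 1, but the array 4 ratio was 0.06. By level, *WT* pool 1 on array 4 was closer to the mean of the *Mut* pools than to that of the *WT* pools at 21 of the 57 member probes (36.8%), against 39.3% of all probes.

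**Figure D4:**
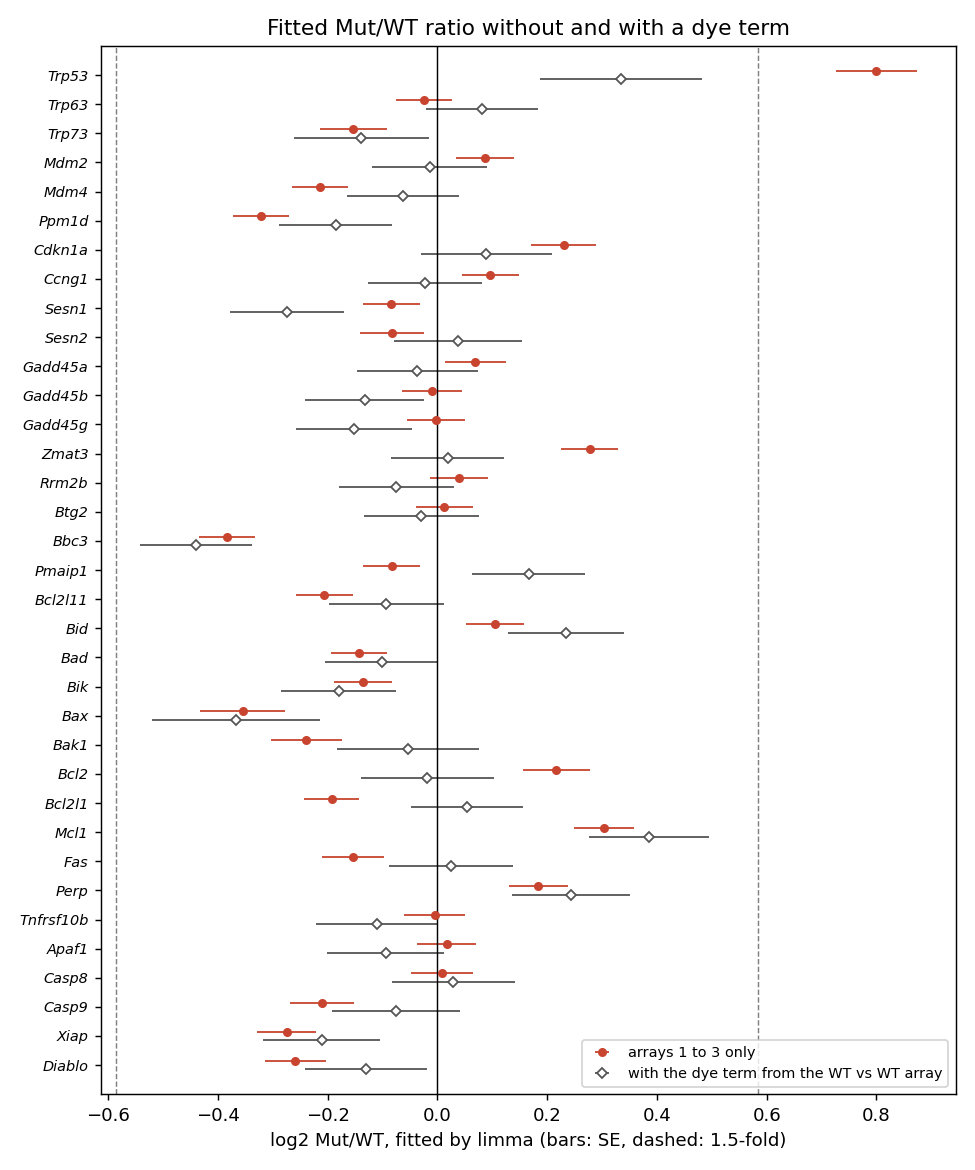
log2 *Mut*/*WT* fitted by limma (x axis; bars, SE) for the brightest probe of each of the 35 genes (y axis), from arrays 1 to 3 alone (filled) and with a dye term from array 4 (open); dashed line, 1.5-fold. *Trp53* moves from 0.80 to 0.33 and *Zmat3* from 0.28 to 0.02, while *Bbc3* moves from -0.38 to -0.44, *Bax* from -0.35 to -0.37 and *Mcl1* from 0.30 to 0.39.

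A further 80 genes of the pathway (damage kinases, other p53 targets, executioner caspases, inhibitors of apoptosis) were listed by name, of which 76 were matched through 114 probes. Of these, 0 were called higher by limma and 2 lower, 1.75% against 2.01% of all probes. At an unadjusted P under 0.05 alone 26 were higher and 46 lower (18.9% and 21.6% of all probes), and by adjusted P alone 19 were higher and 38 lower (13.2% and 16.4% of all probes). *Ddit4*, a stress-induced inhibitor of mTORC1, fell by 0.70 (ratios -0.70, -0.60 and -0.81; 1.63-fold; adjusted P = 8.46e-06) and kept its call with the dye term (-0.79, adjusted P = 0.00664). It read 12.02, 11.98 and 11.99 in *WT* and 11.32, 11.38 and 11.18 in *Mut*. *WT* pool 1 on array 4 read 11.29, however, 0.73 below its own value on array 1, and *WT* pool 2 read 11.38. Both *WT* pools thus read there as the *Mut* pools did. *Trp53inp1*, a p53 cofactor in cell death and autophagy, fell at its dimmer probe, which read 9.42, 9.55 and 9.58 in *WT* and 7.98, 8.08 and 8.57 in *Mut*. The ratios of -1.44, -1.46 and -1.01 averaged -1.30 ± 0.26 (SD, n = 3), or 2.47-fold lower (adjusted P = 1.39e-06), with -0.36 between *WT* pools and -0.94 with the dye term (adjusted P = 0.018). Here the *WT* pools read 9.11 and 8.75 on array 4, above all *Mut* pools. Its brighter probe was at -0.30 (adjusted P = 0.0017) and was not called. Neither gene was called with an offset of 0, with median centring or by the methods' *t*-test after adjustment, although the ratios were as large or larger (*Trp53inp1* -1.48 and *Ddit4* -0.70 with the offset, -1.84 and -1.34 with median centring). With the deposited log ratios *Ddit4* was called (-0.70, adjusted P = 0.036) but *Trp53inp1* was not (-1.58, adjusted P = 0.0533).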

How the data were processed

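For each of 4 dual-colour arrays of 1 slide, the files the authors deposited were written by Agilent Feature Extraction (version 10.7.3.1). The deposited intensity values give the median signal and local background of each spot in both channels, not normalized. The authors' program also gave the log10 ratio of red over green, after background subtraction and dye normalization, which a deposited table of the series repeats in all 180072 values (log2 tolerance 1e-06). Values from GeneSpring were not analysed here.

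Background was corrected with normexp (offset 50) on the median signals, log ratios were fitted by loess array by array, control and outlier spots (122 to 162 per array) were left out, and spots of a probe were averaged. Single channels were normalized with Aquantile. The log2 ratios of 3 arrays were tested against 0 with limma 3.58.1 in R 4.3.3, with the thresholds of the study's methods. The share of probes above background was 45.1% to 49.5% in *Mut* and 54.2% to 58.4% in *WT*, with 51.1% in Cy3 and 57.4% in Cy5 on array 4 (*WT* in both), and with 3 arrays the precision of each value is low. All arrays were on 1 slide and scanned together, so these could not be tested as batches.

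Each array pairs the *Mut* and *WT* pool of a number. Their deviations from the group means had Pearson correlations over probes of 0.388, 0.431 and 0.320 on arrays 1 to 3, and every other pairing was negative. Symbols came from a GRCm38.p6 table, for 55.7% of the probes. The members, the other lists and the tests were chosen with earlier results of these data known. All 35 members are named, with all ratios for *Trp53*, *Mdm2*, *Cdkn1a* and *Bax*, and of the other pathway genes those called. Ratios of every array were added for *Bbc3*, *Mcl1*, *Zmat3* and *Bcl2* after their values were seen, as were the levels of *Ppm1d*, *Casp9* and a *Sesn1* probe. *Atr*, *Usp7*, *Bcl2a1a* and *Sept4* of the pathway list were not matched. The limma script was tested on simulated data. Alternatives changed the values, the offset, the normalization, outlier spots, dim probes, the dye term, the pairing, the arrays, the test, the fold minimum and the probe of a gene.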

Additional observations from a re-analysis of the deposited data

How the results depend on the processing

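The number of called member probes changed with the processing. Against 1 higher and 0 lower, the deposited log ratios gave 0 higher and 3 lower (dimmer probes of *Sesn1*, *Apaf1* and *Tnfrsf10b*), an offset of 0, median centring, the dye term and the methods' *t*-test after adjustment 0 higher, and no fold minimum 8 higher and 18 lower. *Trp53* was at 1.15 with the deposited log ratios, 1.00 with an offset of 0, 0.35 with median centring, 0.33 with the dye term and 0.37 as the median of its probes, without a call under any of these, and at 0.70 to 0.92 with 1 array left out, where it was called. Of the other pathway probes, against 0 higher and 2 lower, 6 were lower with the deposited log ratios, 0 with an offset of 0, median centring or the adjusted *t*-test, and 2 to 6 with 1 array left out (6 without array 3), and no fold minimum gave 19 higher and 38 lower. Over all probes, against 227 higher and 600 lower (27.4% of calls higher), the counts were 1489 and 1216 with the deposited log ratios (55% higher), 146 and 177 with the dye term (45.2% higher), 5434 and 6753 with no fold minimum, 0 and 0 with an offset of 0, median centring or the adjusted *t*-test, and 216 to 290 and 390 to 917 with 1 array left out (390 without array 1, 917 without array 3). With the pairing left out (no replicate block) they were 225 and 599, with 1 member probe higher and 0 lower, and no call of a member changed.

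Median centring turned the sign of 13 ratios, among them those of *Mcl1*, *Zmat3*, *Cdkn1a* and *Bcl2*, which had passed by adjusted P. With median centring *Apaf1* was at -0.27, *Bcl2* at -0.39, *Bid* at -0.30, *Btg2* at -0.46, *Casp8* at -0.41, *Ccng1* at -0.36, *Cdkn1a* at -0.23, *Gadd45a* at -0.28, *Mcl1* at -0.34, *Mdm2* at -0.39, *Zmat3* at -0.16, *Pmaip1* at 0.044 and *Trp63* at 0.12. With the dye term *Apaf1* was at -0.094, *Bcl2* at -0.018, *Bcl2l1* at 0.054, *Btg2* at -0.029, *Ccng1* at -0.023, *Fas* at 0.025, *Gadd45a* at -0.036, *Mdm2* at -0.014, *Pmaip1* at 0.17, *Rrm2b* at -0.074, *Sesn2* at 0.038 and *Trp63* at 0.082. As the median of their probes *Apaf1* was at -0.022, *Bcl2* at -0.013, *Ccng1* at -0.033, *Gadd45b* at 0.019 and *Mdm2* at -0.15. *Gadd45g* was at 0.011 with the deposited log ratios and 0.022 with an offset of 0. With 1 array left out, *Apaf1* ranged from -0.017 to 0.057, *Btg2* from -0.014 to 0.047, *Casp8* from -0.048 to 0.049, *Gadd45b* from -0.040 to 0.036, *Gadd45g* from -0.039 to 0.017 and *Tnfrsf10b* from -0.061 to 0.030. The deposited log ratios were exactly 0 for *Trp63* and *Rrm2b* and gave no direction. The causes were not tested. Dim signals limit *Trp63*, *Pmaip1* and *Rrm2b* on all 3 arrays, the *Mut* levels of *Trp73*, *Fas*, *Bad* and *Xiap*, and on some arrays *Bik*, *Perp* and *Tnfrsf10b*.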
